A study of Mus musculus with 8 samples.

Results

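Stimulated mouse CD8+ T cells that had received either of 2 compounds, EnPGC-1 or SGC-CBP30, were compared as one arm with cells that had received either of 2 controls, DMSO or Ctrl PIP. The rule took 4 libraries against 4, EnPGC-1 replicates 1 and 2 with SGC-CBP30 replicates 1 and 2 on one side and DMSO replicates 1 and 2 with Ctrl PIP replicates 1 and 2 on the other, so that all 8 of the 8 libraries of the series were used. Every library was made from mRNA of primary CD8+ T cells taken from the lymph nodes and spleens of C57BL/6 mice. All 4 groups carried the same T cell receptor stimulation, by antibodies to CD3 and CD28, and were cultured for 48 hours, so that neither arm holds resting cells. The groups differed in what was added: DMSO is the solvent, Ctrl PIP a control compound, EnPGC-1 the compound the series is about, and SGC-CBP30 a small molecule known to occupy the bromodomain of CBP and of its relative p300. The labels hold no doses. Whether the 2 libraries of a group came from separate mice or cultures is likewise unstated, so p-values reflect only how far libraries of a group lay apart, and that spread may be technical.

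When a T cell receptor and its CD28 co-receptor are engaged, a CD8+ T cell leaves quiescence, induces transcription factors such as Myc, Irf4 and Batf3, takes up amino acids and iron, makes ribosomes, sterols and nucleotides, and acquires cytotoxic molecules such as granzyme B. CBP and p300 acetylate histones at enhancers and promoters, and their bromodomains bind acetylated lysine. PGC-1 alpha and beta, encoded by Ppargc1a and Ppargc1b, are transcriptional coactivators of mitochondrial biogenesis, the process named in the title of the series.

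The libraries held 38890043 to 55491261 counts each. Levels are given in CPM, counts scaled to a common library size, on sizes adjusted by the trimmed mean of M-values, without division by transcript length, so they compare libraries and not genes. The 15 CD8+ T cell identity genes summed to 5870 to 6786 CPM in the control libraries and 5482 to 7441 CPM in the compound libraries. Libraries also differed along transcript length: the Spearman correlation across genes of a library's deviation from the 8-library mean with transcript length was positive in 1 control library (0.56 in DMSO replicate 1) and 3 compound libraries (0.48 to 0.54), and negative in DMSO replicate 2 (-0.61), EnPGC-1 replicate 2 (-0.53) and the Ctrl PIP libraries (-0.53 and -0.20). The first principal component, with 49.6% of the variance, did not separate the arms. The second, with 15.02%, held the control libraries between -46.0 and -3.21, EnPGC-1 replicate 1 among them at -30.7, and the other 3 compound libraries between 22.4 and 53.0. The trends with length and the second component are plotted per library.

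**Figure D1:**
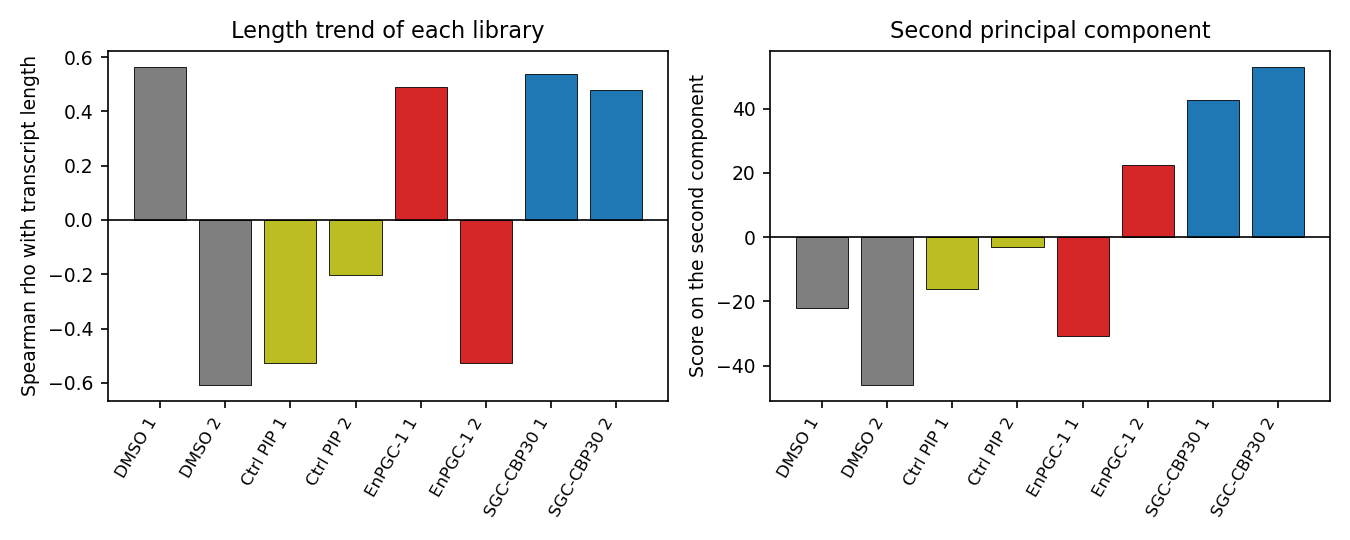
Left, Spearman correlation across genes of each library's log2 CPM deviation with transcript length; right, each library's score on the second principal component of log2 CPM, with bars coloured by group. Signs of the length trend are mixed within DMSO and within EnPGC-1, and EnPGC-1 replicate 1 is the compound library that lies among the controls on the right.

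Among 16750 genes tested, genes without overlap between the arms were found in both directions, and their differences were mostly small. In 629 genes (3.76%) all 4 compound libraries lay below all 4 control libraries, and in 499 genes (2.98%) all 4 lay above them. Order alone passes some genes, because 4 against 4 libraries allow only 70 arrangements. A further fit removed each library's trend with transcript length and GC content, over the 15496 genes with a length. There 416 (66.1%) of the 629 and 299 (59.9%) of the 499 were again without overlap. The 629 lower genes had a median log2 fold change of -0.64, compound minus control, against 0.03 over all genes tested, and 160 of them (25.4%) were beyond 1 in size. The 499 higher genes had a median of 0.49 and 107 (21.4%) were beyond 1, against 1498 (8.94%) of all genes; both sets were chosen for separation on these values. Lower genes were the more abundant, with a median level of 31.0 CPM against 8.40 CPM for the higher genes and 14.2 CPM overall. Protein-coding genes made up 90.5% of the lower and 81.2% of the higher set, against 77.1% of all genes tested. The median transcript was 2914.5 bases long in the lower set, 3178 in the higher set and 2921 overall. In 4 of the 629, Il13 among them, a control library held 0 reads and the order rested on the prior count of 2 used for the log2 scale. In CPM itself these 4 were not below all control libraries.

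With the 4 groups fitted as separate means, edgeR's quasi-likelihood test called 0 genes in either direction at an adjusted p under 0.05. At an unadjusted p under 0.05 it held 905 genes lower (5.4%) and 416 higher (2.48%). Where no gene differs, that threshold passes a fraction of about 0.05 of genes, both directions together. DESeq2's Wald test on the same counts called 183 genes lower (1.36% of the 13502 it adjusted) and 39 higher (0.289%). Where a gene below is given with a DESeq2 adjusted p alone, its edgeR adjusted p was not under 0.05. Among genes named by gap or as fixed genes, the lowest edgeR adjusted p was 0.515. Of the DESeq2 calls, 164 of the 183 lower genes (89.6%) and 30 of the 39 higher genes (76.9%) also had no overlap between the arms; those 164 and 30 were 26.1% of the 629 and 6.01% of the 499. Without DMSO replicate 1, edgeR called 235 genes lower and 55 higher, and the genes without overlap numbered 2518 lower and 2030 higher. Without DMSO replicate 2, it called 0 and 0, and DESeq2 called 123 and 14. DMSO replicate 2 was the highest of the 8 libraries in 366 of the 629 lower genes and the lowest in 275 of the 499 higher genes. It also held the most Rn18s-rs5, a ribosomal RNA-related sequence, at 10073 CPM. EnPGC-1 replicate 2 held 9044 CPM and the other 6 libraries 1119 to 2311 CPM, and the part of this in the counts was not tested.

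No-overlap is a rule of order and passes genes with almost no distance between the arms. Just inside it, Exosc7, a subunit of the RNA exosome, stood at 23.5 to 28.98 CPM with the compounds and 28.98 to 53.7 CPM in the controls. Just outside, Cebpz stood at 73.2 to 89.95 CPM with the compounds and 89.93 to 114.8 CPM in the controls. A gap of at least 0.5 on the log2 scale between the nearest libraries of the 2 arms was held by 52 lower genes (0.31%) and 28 higher genes (0.167%). Of the genes with the widest gap, among those reaching 5 CPM in the higher arm, 13 lower and 14 higher are plotted with all 8 values.

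**Figure D2:**
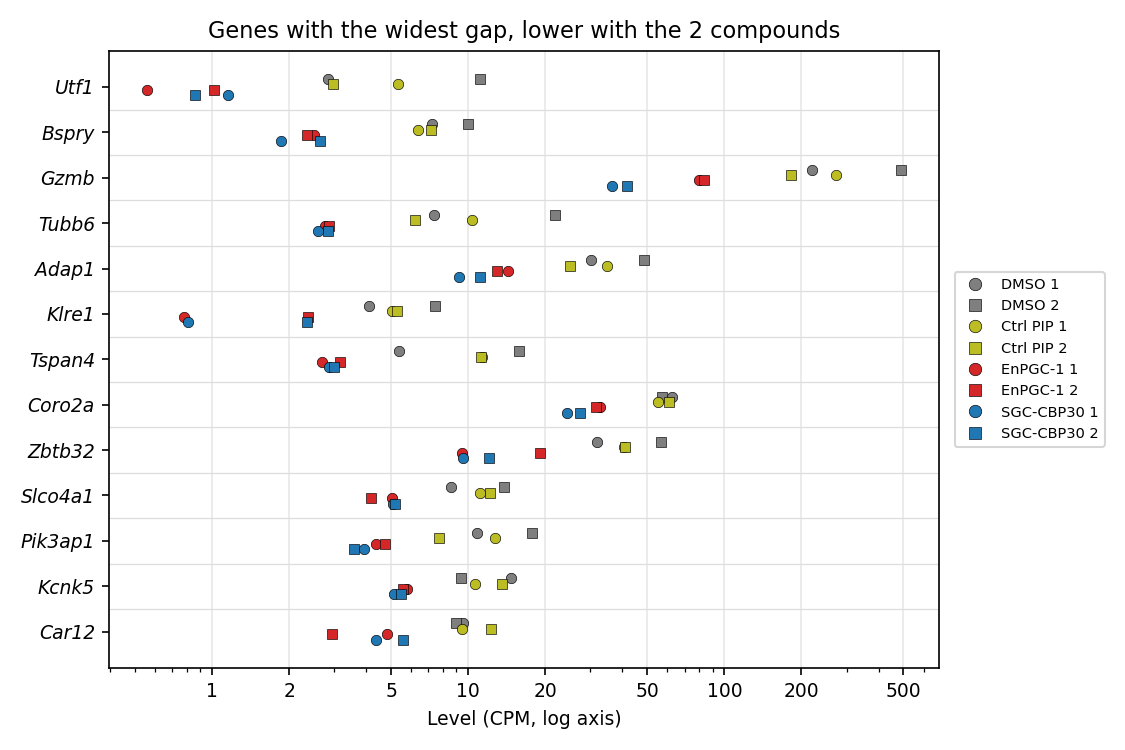
CPM on a log axis of 13 of the lower genes with the widest gap, in order of the gap, 1 point per library, coloured by group and shaped by replicate. Every EnPGC-1 and SGC-CBP30 point lies left of every DMSO and Ctrl PIP point in each row, which is the rule by which the genes were taken.

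Of the cytotoxic and effector genes, 6 of 20 tested (30%) were lower without overlap in the compound libraries. Gzmb, which encodes granzyme B, the serine protease released into target cells, stood at 220 and 490 CPM with DMSO, 272 and 182 with Ctrl PIP, 79.7 and 83.4 with EnPGC-1, and 36.4 and 41.6 with SGC-CBP30. All 4 compound values were under the lowest control value, and the SGC-CBP30 libraries were under both EnPGC-1 libraries. The pooled log2 fold change of Gzmb was -2.33 (SE 0.29), with an edgeR adjusted p of 0.515 and a DESeq2 adjusted p of 2.04e-11. Ifng, the gene of interferon gamma, stood at 12.6 and 8.02 CPM with DMSO, 6.36 and 9.15 with Ctrl PIP, 5.71 and 3.36 with EnPGC-1, and 2.76 and 2.28 with SGC-CBP30, without overlap and with a log2 fold change of -1.40 (SE 0.28; DESeq2 adjusted p 0.00229). Prf1, which encodes the pore-forming protein perforin, overlapped between the arms at 22.6 to 27.8 CPM in the controls and 15.1 to 32.5 CPM with the compounds.

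The 6 were Cst7, Fasl, Gzmb, Gzmc, Ifng and Tnf. Of the 20, 0 were higher without overlap, 5 had a log2 fold change above 0, edgeR called 0, DESeq2 called 6 lower and 0 higher, and the median log2 fold change was -0.56. Such list counts stand beside shares over all genes tested of 3.76% lower and 2.98% higher without overlap, and of 1.36% lower and 0.289% higher by DESeq2. Over all 16750 genes, 7987 had a log2 fold change below 0 and 8763 above, and edgeR called 0 in each of the 24 pathway lists. Cst7, the gene of the protease inhibitor cystatin F, had a log2 fold change of -0.87 (SE 0.14; DESeq2 adjusted p 1.63e-06). Gzmc, a second granzyme gene, had one of -1.77 (SE 0.39; DESeq2 adjusted p 0.0063) at 1.58 to 2.55 CPM in the controls. Granzyme genes resemble each other in sequence, and no source used here says how the authors' counting divided reads between them. After offsets that remove each library's trend with transcript length and GC content, 3 of the 20 were lower without overlap, and Ifng overlapped. List counts after these offsets stand beside 4.26% lower and 4.27% higher without overlap over the 15496 genes of that fit. Gzmb had a log2 fold change of -2.05 (SE 0.18) there and still did not overlap.

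Gzmb lies at chr14:56258836-56262334 (GRCm38.p6). Its promoter window, chr14:56262285-56262584 on the minus strand from RefSeq, covers 250 bases before the start of transcription and 50 after it. It is shown because Gzmb had the widest gap among the effector genes and its window holds the AP-1 motif TGANTCA, in capitals.
Gzmb: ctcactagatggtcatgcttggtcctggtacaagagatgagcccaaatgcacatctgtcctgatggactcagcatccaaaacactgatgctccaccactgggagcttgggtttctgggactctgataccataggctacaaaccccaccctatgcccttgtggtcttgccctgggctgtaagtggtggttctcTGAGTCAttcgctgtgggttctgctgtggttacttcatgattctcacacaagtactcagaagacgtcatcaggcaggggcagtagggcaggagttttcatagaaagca
The AP-1 motif, on either strand, was present in 6.23% of the 626 windows of lower genes, 4.73% of the 486 windows of higher genes and 5.33% of the 14964 windows of all tested genes with an entry. A match describes the letters in the window and is not a binding site.

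Chemokine and cytokine receptors held members lower and 1 member higher. Ccr2, a receptor for monocyte chemoattractants, stood at 19.9 and 13.3 CPM with DMSO, 14.7 and 18 with Ctrl PIP, 8.33 and 3.34 with EnPGC-1, and 3.17 and 3.99 with SGC-CBP30. The arms did not overlap, and EnPGC-1 replicate 1 was the highest of the compound libraries. Its log2 fold change was -1.85 (SE 0.33; DESeq2 adjusted p 0.000117). Il18rap, the accessory chain of the interleukin-18 receptor, was at 32.9 to 46.3 CPM against 13.2 to 21.5 CPM. In the opposite direction, Ifngr2, the signalling chain of the interferon gamma receptor, stood at 14.5 and 13.5 CPM with DMSO, 16.6 and 20.002 with Ctrl PIP, 22.2 and 31.95 with EnPGC-1, and 32.2 and 34.1 with SGC-CBP30 (log2 fold change 0.90, SE 0.17; DESeq2 adjusted p 0.000406).

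Of 33 chemokine, cytokine and receptor genes tested, 9 were lower without overlap (among them Ccl4, Ccl5, Ccr2, Csf2, Cxcr3, Il12rb1, Il13 and Il18rap) and 1 was higher, Ifngr2. DESeq2 called 5 lower and 1 higher, and the list's median log2 fold change was -0.49. Under the length and GC offsets 6 of the 33 were lower without overlap and 1 was higher. Il13 had reads in 3 control libraries only, at up to 0.251 CPM. It counts as lower only through the prior count, and in CPM it was not below all control libraries. Ccl5, a chemokine of memory and effector CD8+ T cells, stood at 51.1 to 60.7 CPM in the controls and 28.9 to 48.9 CPM with the compounds.

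Of activation markers 11 of 29, and of early transcription factors 4 of 27, were lower without overlap with the compounds. Myc, the transcription factor that drives growth metabolism after T cell activation, stood at 147 and 208 CPM with DMSO, 153 and 124 with Ctrl PIP, 97.8 and 85.9 with EnPGC-1, and 71.1 and 62.9 with SGC-CBP30. The arms did not overlap, and the log2 fold change of Myc was -0.998 (SE 0.17; edgeR adjusted p 0.569; DESeq2 adjusted p 4.87e-05). Batf3, a basic leucine zipper factor, had few counts, 113 and 144 with DMSO, 121 and 179 with Ctrl PIP, 11 and 34 with EnPGC-1, and 14 and 19 with SGC-CBP30. Its log2 fold change was -2.93 (SE 0.38; edgeR adjusted p 0.515; DESeq2 adjusted p 3.22e-09). Il2ra, the high-affinity chain of the interleukin-2 receptor, stood at 83.2 to 132 CPM in the controls and 47.8 to 64.8 CPM with the compounds, a log2 fold change of -1.004 (SE 0.21; DESeq2 adjusted p 0.00623). Tnfrsf9, which encodes the costimulatory receptor 4-1BB, stood at 53.7 to 191 CPM against 32.1 to 41.7 CPM.

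The 11 activation and costimulation genes were Batf3, Cd69, Egr2, Egr3, Il2ra, Irf4, Myc, Slc7a5, Tfrc, Tnfrsf4 and Tnfrsf9. Of the 29, 0 were higher without overlap, 27 had a log2 fold change below 0, and the median was -0.71. DESeq2 called 8 of them lower. After the length and GC offsets 10 of the 29 were lower without overlap and the median was -0.66. Of 27 AP-1, NR4A, EGR and IRF factors, which relay receptor signals to transcription, the 4 were Batf3, Egr2, Egr3 and Irf4. All 4 are also in the activation list. Of the 27, 8 had a log2 fold change above 0, and DESeq2 called 3 lower. Under the length and GC offsets 3 of the 27 were lower without overlap. Irf4, required for the expansion of effector T cells, stood at 52.8 to 88.4 CPM in the controls and 24.6 to 40.1 CPM with the compounds (log2 fold change -0.92, SE 0.23; DESeq2 adjusted p 0.0202). Egr1 overlapped, because Ctrl PIP replicate 2 stood at 34.9 CPM, below EnPGC-1 replicate 1 at 39.95 CPM.

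Inhibitory receptors and exhaustion factors gave a mixed list. Of 22 tested, 6 were lower without overlap (Bhlhe40, Btla, Cd160, Eomes, Lair1 and Tigit) and 0 were higher. DESeq2 called 3 lower, and 9 had a log2 fold change above 0. Under the length and GC offsets 5 of the 22 were lower without overlap. Cd160, a receptor that binds HVEM, stood at 30.7 and 49.2 CPM with DMSO, 40.7 and 33.8 with Ctrl PIP, 15.1 and 22.4 with EnPGC-1, and 12.2 and 12.9 with SGC-CBP30 (log2 fold change -1.33, SE 0.22; DESeq2 adjusted p 2.4e-05). Eomes, a T-box factor of effector and memory CD8+ T cells, stood at 63.7 to 73.1 CPM against 40.05 to 48.4 CPM (log2 fold change -0.65, SE 0.13; DESeq2 adjusted p 0.000717). Pdcd1, the gene of PD-1, overlapped widely at 15.003 to 27.1 CPM in the controls and 16.4 to 24.1 CPM with the compounds, and its log2 fold change of 0.06 (95% interval -0.55 to 0.68) changed sign when single libraries were left out.

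Memory, homing and quiescence genes had fold changes mostly above 0. Klf2, a zinc-finger factor of quiescent, recirculating T cells, stood at 241 and 194 CPM with DMSO, 206 and 218 with Ctrl PIP, 369 and 312 with EnPGC-1, and 275 and 273 with SGC-CBP30. The arms did not overlap (log2 fold change 0.51, SE 0.14; DESeq2 adjusted p 0.0382). Of 28 genes in the list, 2 were higher without overlap (7.14%), Klf2 among them, 0 were lower, 25 had a log2 fold change above 0, and the median was 0.33. After the offsets 6 of the 28 were higher without overlap (21.4%, against 4.27% of all genes in that fit). Tcf7, the gene of the memory factor TCF-1, overlapped because DMSO replicate 1 stood at 1929 CPM among compound libraries at 1808 to 2112 CPM.

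The list of ribosome biogenesis genes and MYC targets had the largest share of members lower without overlap among the 24 pathway lists described. The lists were written with earlier results of these data known. Of 34 ribosome biogenesis genes and MYC targets, 19 were lower without overlap (55.9%), 0 were higher, all 34 had a log2 fold change below 0, and the median was -0.68. DESeq2 called 9 lower. After the length and GC offsets 21 of the 34 were lower without overlap and the median was -0.73. Srm, which encodes spermidine synthase, stood at 54.6 and 121 CPM with DMSO, 104 and 114 with Ctrl PIP, 43.8 and 35.5 with EnPGC-1, and 37.5 and 45.6 with SGC-CBP30 (log2 fold change -1.27, SE 0.26; DESeq2 adjusted p 0.00234). DMSO replicate 1 was the lowest control, as it was for Nolc1 at 120 CPM, Bop1 at 77.3 CPM and Nop2 at 62.1 CPM, and it lay above every compound library for each of them. Nolc1, a nucleolar chaperone of small nucleolar ribonucleoproteins, had a log2 fold change of -0.85 (SE 0.18; DESeq2 adjusted p 0.0041). Bop1, a large-subunit assembly factor, had one of -0.80 (SE 0.17; DESeq2 adjusted p 0.00488), and Nop2, an RNA methyltransferase, one of -0.83 (SE 0.18; DESeq2 adjusted p 0.00776). The 40 cytosolic ribosomal protein genes are a different list: 0 of them were without overlap in either direction, and their median was -0.19, or 0.07 after the offsets.

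The letters CACGTG, the canonical E-box that MYC and its partner MAX are known to bind, read the same on both strands. They were present in 14.9% of the promoter windows of lower genes, 8.02% of those of higher genes and 9.41% of all 14964 windows. In the list of ribosome biogenesis genes and MYC targets, 9 of 32 windows held them (28.1%). Some of its genes are listed for being MYC targets. Counted by gene, 6 of the list's 17 lower genes with a window held them. This stands beside 87 of 498 lower genes and 1310 of 11806 tested genes with a window. The stretches around the E-box in those 6 genes are shown 5′ to 3′ on the gene's strand (GRCm38.p6, RefSeq), with up to 20 bases on each side and the E-box in capitals, because this motif is the one of the 4 searched whose share was furthest from that of all windows in the lower genes.
Mybbp1a (chr11:72441347-72441376, plus strand): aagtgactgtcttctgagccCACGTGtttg
Nop2 (chr6:125131803-125131848, plus strand): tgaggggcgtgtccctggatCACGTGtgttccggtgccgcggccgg
Pes1 (chr11:3963957-3964002, plus strand): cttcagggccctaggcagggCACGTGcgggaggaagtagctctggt
Tsr1 (chr11:74898084-74898129, plus strand): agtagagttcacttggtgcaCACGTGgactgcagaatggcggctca
Utp20 (chr10:88826765-88826797, minus strand): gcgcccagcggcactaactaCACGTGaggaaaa
Wdr43 (chr17:71616212-71616257, plus strand): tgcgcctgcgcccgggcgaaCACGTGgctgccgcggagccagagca
The genes encode nucleolar and preribosomal factors, and they were chosen after their values were seen. The cyclic AMP response element TGACGTCA was present in 2.72%, 3.91% and 2.85% of windows of lower, higher and all genes, and the GC box GGGCGG in 58.6%, 56.4% and 57.2%, each on either strand. These shares are descriptions without a test, and no factor's binding was measured.

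**Figure D3:**
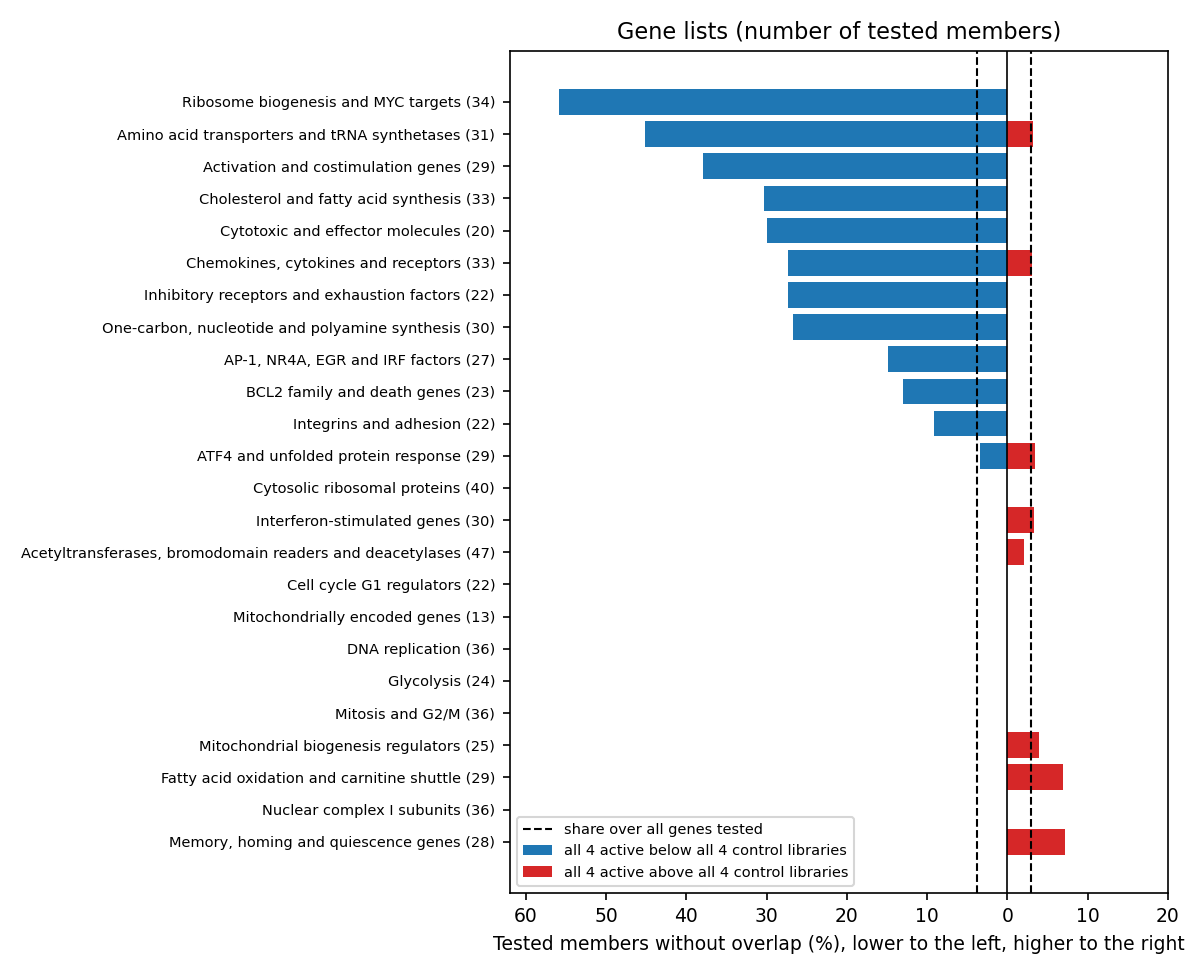
Share of the tested members of each of 24 gene lists whose 4 compound libraries all lie below (blue, to the left) or above (red, to the right) the 4 control libraries, in percent, with the number tested in brackets. Dashed lines mark 3.76% and 2.98%, the shares over all 16750 genes, and 55.9% of the ribosome biogenesis list lies to the left.

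Genes that supply building blocks were lower in several lists. Slc7a5, the large neutral amino acid transporter that T cells induce on activation, stood at 102 and 125 CPM with DMSO, 109 and 140 with Ctrl PIP, 64.9 and 47.4 with EnPGC-1, and 59.3 and 60.2 with SGC-CBP30 (log2 fold change -1.04, SE 0.17; DESeq2 adjusted p 4.9e-05). Of 31 amino acid transporters and tRNA synthetases, 14 were lower without overlap and 1, Wars, was higher. The 14 were 3 transporters, Slc1a5, Slc7a1 and Slc7a5, and 11 synthetases, Tars among them (log2 fold change -0.52, SE 0.13; DESeq2 adjusted p 0.0137). DESeq2 called 2 of the 31 lower. Under the length and GC offsets 13 of the 31 were lower without overlap and 1 was higher. Wars, the tryptophanyl synthetase, which interferon gamma is known to induce, stood at 128 to 153 CPM in the controls and 164 to 216 CPM with the compounds.

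Sterol synthesis showed the same direction. All 33 genes of cholesterol and fatty acid synthesis had a log2 fold change below 0, with a median of -0.45. Of these, 10 were lower without overlap (among them Cyp51, Fasn, Hmgcs1, Hsd17b7, Insig1, Lss, Sqle and Srebf2) and 0 were higher, and DESeq2 called 5 lower. Sqle, the squalene epoxidase of cholesterol synthesis, stood at 41.3 and 77.9 CPM with DMSO, 57.2 and 50.4 with Ctrl PIP, 27.7 and 29.6 with EnPGC-1, and 23.3 and 30.9 with SGC-CBP30 (log2 fold change -1.02, SE 0.23; DESeq2 adjusted p 0.00814). Cyp51, the lanosterol demethylase, stood at 67.1 to 159 CPM in the controls and 38.6 to 56.6 CPM with the compounds (log2 fold change -1.16, SE 0.30).

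Of 30 genes of one-carbon, nucleotide and polyamine synthesis, 8 were lower without overlap (Adsl, Atic, Cad, Gart, Impdh1, Mthfd1, Shmt1 and Srm), 0 were higher, the median log2 fold change was -0.61, and DESeq2 called 7 lower. Cad and Srm are also in the ribosome biogenesis and MYC list. Under the length and GC offsets 6 of the 30 were lower without overlap. Shmt1, cytosolic serine hydroxymethyltransferase, stood at 30.2 and 61.7 CPM with DMSO, 46.7 and 55.5 with Ctrl PIP, 18.97 and 16.01 with EnPGC-1, and 19.5 and 23.7 with SGC-CBP30 (log2 fold change -1.32, SE 0.25; DESeq2 adjusted p 0.00059). Gart, an enzyme of purine synthesis, stood at 133 to 209 CPM in the controls and 92.6 to 111 CPM with the compounds.

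Glycolysis and the cell cycle had no member without overlap. The 24 glycolysis genes had a median log2 fold change of -0.52, with 0 without overlap in either direction. Hk2, the inducible hexokinase, stood at 24.2 and 73.6 CPM with DMSO, 59.4 and 50.3 with Ctrl PIP, 12.8 and 18.2 with EnPGC-1, and 27.1 and 33.7 with SGC-CBP30, so DMSO replicate 1 lay among the compound libraries. Its log2 fold change was -1.25 (SE 0.35; edgeR adjusted p 0.594; DESeq2 adjusted p 0.0448). It was -1.54 without DMSO replicate 1 and -0.75 without DMSO replicate 2. All 36 DNA replication genes had a log2 fold change below 0 with a median of -0.48, and 0 were without overlap. The 36 mitosis genes had a median of -0.14, with 12 above 0.

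The genes that the title of the series points to did not separate the arms. Ppargc1a had few reads, with counts of 14 and 0 for DMSO, 0 and 0 with Ctrl PIP, 74 and 10 with EnPGC-1, and 0 and 3 with SGC-CBP30, so most of its reads came from EnPGC-1 replicate 1. Ppargc1b stood at 27.2 and 10.6 CPM with DMSO, 11.8 and 15.6 with Ctrl PIP, 32.5 and 10.04 with EnPGC-1, and 17.4 and 14.5 with SGC-CBP30, with a log2 fold change of 0.19 (95% interval -0.87 to 1.25). The 2 libraries of DMSO and the 2 of EnPGC-1 spanned most of that range. Of 25 mitochondrial biogenesis regulators tested, 1 was higher without overlap (4%), Mterf2 (log2 fold change 0.30, SE 0.14), 0 were lower and the median was -0.01. The 13 mitochondrially encoded genes had a median of 0.02 and none was without overlap.

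Fatty acid oxidation genes gave 2 members without overlap, and nuclear complex I subunit genes gave 0. Of 29 genes of fatty acid oxidation and the carnitine shuttle, 2 were higher without overlap (6.90%, against 2.98% of all genes), Acad10 and Cpt1a, 0 were called by DESeq2, and the median was -0.07. Cpt1a, which imports long-chain fatty acids into mitochondria, stood at 145 and 66.1 CPM with DMSO, 90.3 and 82.9 with Ctrl PIP, 154 and 170 with EnPGC-1, and 153 and 155 with SGC-CBP30. DMSO replicate 1, at 145 CPM, lay close to the compound libraries. The log2 fold change of Cpt1a was 0.72 (SE 0.25; edgeR adjusted p 0.600; DESeq2 adjusted p 0.183). It was 1.07 without DMSO replicate 1 and 0.49 without DMSO replicate 2. Of 36 nuclear complex I subunit genes, 35 had a log2 fold change below 0 with a median of -0.42, which was -0.14 after the length and GC offsets, and 0 were without overlap.

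The genes of CBP and p300, whose bromodomains SGC-CBP30 is known to occupy, were not separated either. Crebbp, the gene of CBP, stood at 142 and 38.6 CPM with DMSO, 61.2 and 75.5 with Ctrl PIP, 149 and 60.01 with EnPGC-1, and 156 and 112 with SGC-CBP30. Ep300, the gene of p300, stood at 211 and 51.2, 81.5 and 93.8, 216 and 77.9, and 205 and 167 CPM in the same order. In both, the 2 DMSO libraries lay further apart than the means of the arms. Of 47 acetyltransferases, bromodomain readers and deacetylases, 1 was higher without overlap (2.13%), Brd9 (log2 fold change 0.25, SE 0.12), and 0 were lower. Of the 47, 36 had a log2 fold change above 0, and the median was 0.17.

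Outside the pathway lists, the widest gap among lower genes reaching 5 CPM belonged to Utf1, a chromatin factor known from pluripotent cells. It stood at 2.83 and 11.2 CPM with DMSO, 5.32 and 2.97 with Ctrl PIP, 0.559 and 1.02 with EnPGC-1, and 1.16 and 0.858 with SGC-CBP30 (log2 fold change -2.59, SE 0.52; DESeq2 adjusted p 0.000338). Bspry, a B-box and SPRY domain gene, stood at 6.38 to 9.996 CPM in the controls and 1.86 to 2.65 CPM with the compounds (log2 fold change -1.71, SE 0.23; DESeq2 adjusted p 4.13e-09). Coro2a, a coronin of the actin cytoskeleton, had closer replicates: 62.2 and 57.2 CPM with DMSO, 54.99 and 61.1 with Ctrl PIP, 32.8 and 31.6 with EnPGC-1, and 24.4 and 27.4 with SGC-CBP30. Its log2 fold change was -1.03 (SE 0.12; edgeR adjusted p 0.515; DESeq2 adjusted p 1.81e-12). Zbtb32, a repressor induced in activated lymphocytes, stood at 31.98 to 56.7 CPM against 9.47 to 19.2 CPM. The plotted genes were taken for their gap in these 8 values, so tests on the same values add nothing to it. After the length and GC offsets all 13 were still without overlap.

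**Figure D4:**
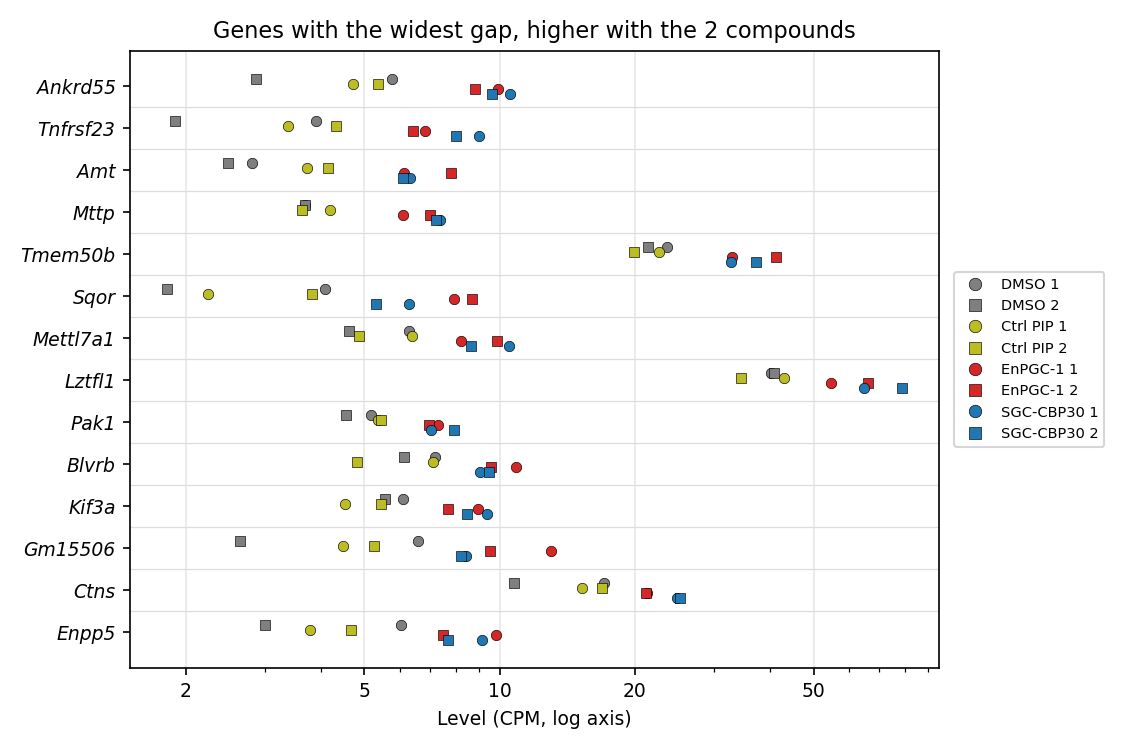
CPM on a log axis of the 14 higher genes with the widest gap, in order of the gap, 1 point per library, coloured by group and shaped by replicate. All compound points lie right of all control points, as the rule requires, and 12 of the 14 genes stay under 30 CPM in every library.

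The higher genes with the widest gap had smaller differences and mostly low levels, and none of the 14 is a member of a list. Ankrd55, an ankyrin repeat gene, stood at 5.75 and 2.86 CPM with DMSO, 4.72 and 5.38 with Ctrl PIP, 9.93 and 8.84 with EnPGC-1, and 10.6 and 9.63 with SGC-CBP30 (log2 fold change 1.06, SE 0.26; DESeq2 adjusted p 0.0198). Tnfrsf23, a decoy receptor for the death ligand TRAIL, stood at 1.90 to 4.34 CPM in the controls and 6.41 to 8.98 CPM with the compounds. Amt, the aminomethyltransferase of the mitochondrial glycine cleavage system, stood at 2.49 to 4.14 CPM against 6.08 to 7.78 CPM (log2 fold change 1.02, SE 0.20; DESeq2 adjusted p 8.71e-05).

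Other enzymes and carriers among them were Sqor, the mitochondrial sulfide oxidoreductase, at 1.82 to 4.09 CPM in the controls against 5.32 to 8.69 CPM with the compounds, and Mttp, the microsomal triglyceride transfer protein, at 3.64 to 4.20 against 6.10 to 7.36 CPM. Lztfl1, a regulator of ciliary trafficking, stood at 34.5 to 42.9 CPM against 54.8 to 78.8 CPM (log2 fold change 0.73, SE 0.15; DESeq2 adjusted p 0.000846). Ctns, the lysosomal cystine exporter, stood at 10.8 to 17.1 CPM against 21.2 to 25.2 CPM. These genes too were taken for their gap in the same values. After the offsets 13 of the 14 were still without overlap, all but Lztfl1.

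The pooled pattern was compared between pairs of comparisons that share no library. Among 10220 genes at a mean of 5 CPM or more, EnPGC-1 minus DMSO and SGC-CBP30 minus Ctrl PIP had the same sign in 81.0%, with 4019 genes above 0 and 4261 below 0 in both and a Pearson correlation across genes of 0.71. In that pair 62 genes were below -1 in both, 8 were above 1 in both and 0 were beyond 1 in opposite directions. With the controls exchanged, EnPGC-1 minus Ctrl PIP and SGC-CBP30 minus DMSO had the same sign in 71.7%, a correlation of 0.46, 46 genes below -1 in both, 5 above 1 in both and 13 in opposite directions. Over all 16750 genes the correlations were 0.28 and -0.12. Genes are not independent replicates, so these values are a description, and length trends differ between the libraries: the pooled log2 fold change had a Spearman correlation of 0.48 with transcript length over 9316 genes, which was 0.03 after the offsets.

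**Figure D5:**
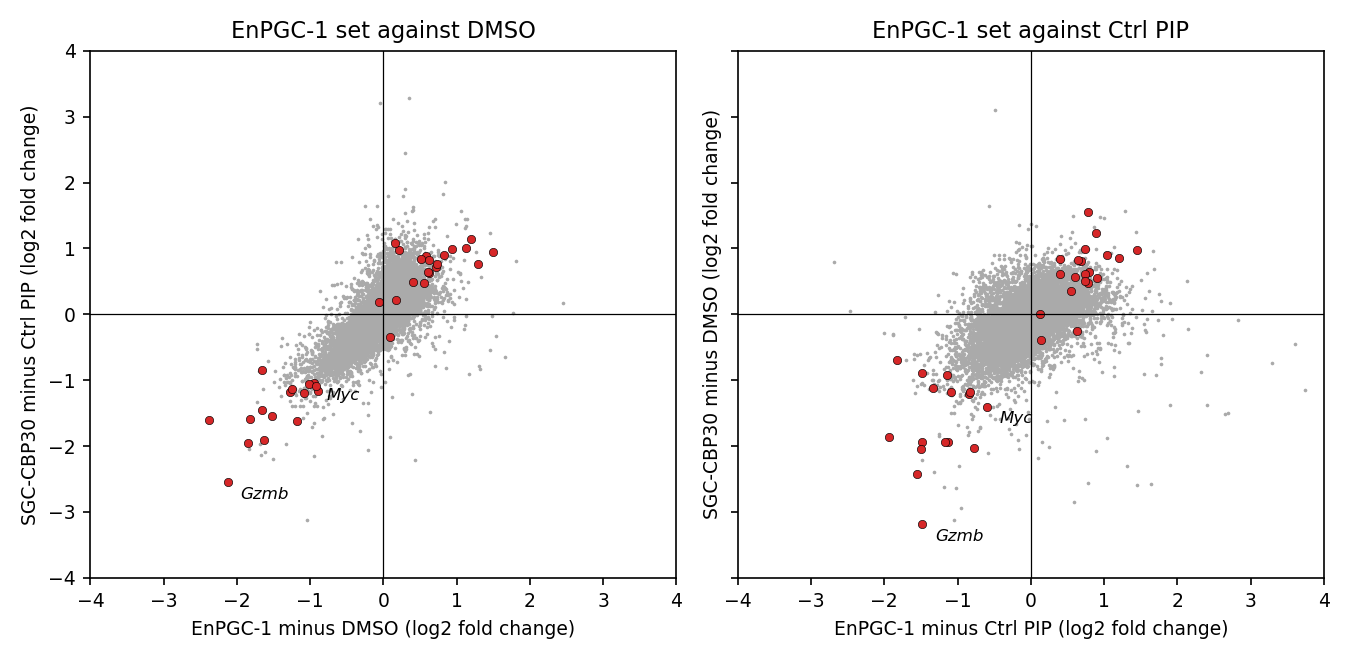
Log2 fold changes of 10220 genes with a mean of at least 5 CPM, EnPGC-1 on the horizontal and SGC-CBP30 on the vertical axis, each against a different control; red points are the named genes at that level. The lower left quadrant holds Gzmb and Myc in both panels, as their order between the arms requires, the correlation is 0.71 on the left and 0.46 on the right, and 2 genes on the left and 5 on the right lie beyond 4 on an axis and are not drawn.

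For Gzmb, Myc and Slc7a5, whose arms do not overlap, the sign of each comparison of a compound with a control is fixed by that order, and the sizes are given as a description. Gzmb had a log2 fold change of -2.12 for EnPGC-1 minus DMSO and -2.54 for SGC-CBP30 minus Ctrl PIP, and -1.48 and -3.19 with the controls exchanged. For Myc the values were -0.95 and -1.05, then -0.59 and -1.40. For Slc7a5 they were -1.01 and -1.06, then -1.15 and -0.92. Slc7a5 was the most even of the 3 between the compounds.

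The 2 compounds were also compared with each other over all genes tested. The contrast of EnPGC-1 with SGC-CBP30 had 0 of 16750 genes at an edgeR adjusted p under 0.05 and 340 (2.03%) at an unadjusted p under 0.05. The median half-width of a 95% interval in the pooled contrast was 0.71 on the log2 scale. That value does not hold for the contrast of the compounds, which sets 2 libraries against 2. For Gzmb the SE was 0.40 between the compounds and 0.29 in the pooled contrast. The contrast of DMSO with Ctrl PIP had 0 genes at an adjusted p and 100 (0.597%) at an unadjusted p under 0.05. Both unadjusted shares lie under the fraction of 0.05 that the threshold passes where no gene differs. The 0 calls therefore do not show that the compounds, or the controls, are alike.

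Single genes were also compared between the compounds. Gzmb was higher with EnPGC-1 than with SGC-CBP30 by 1.06 on the log2 scale (95% interval 0.11 to 2.02; edgeR unadjusted p 0.0338, adjusted p 1). It was 1 of the 13 plotted lower genes with an unadjusted p under 0.05 between the compounds, against 0 of the 14 higher genes. For Myc the difference was 0.45 (-0.11 to 1.02), and for Slc7a5 -0.09 (-0.66 to 0.48).

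Markers of other cell types were present in every library, and their part in these results was not tested. In bulk RNA, fewer cells of a type and less RNA per cell cannot be told apart. Of 12 natural killer cell markers tested, 5 were lower without overlap (Klra9, Klrb1c, Klrc1, Klrc2 and Klre1) with a median log2 fold change of -1.18, and activated CD8+ T cells are known to express several of these receptors. The 13 listed summed to 184 to 306 CPM in the controls and 162 to 329 CPM with the compounds, and Klra4 was at 0 in every library. Klre1 stood at 4.11 and 7.45 CPM with DMSO, 5.06 and 5.30 with Ctrl PIP, 0.777 and 2.38 with EnPGC-1, and 0.810 and 2.35 with SGC-CBP30. The 19 B cell markers had 0 members without overlap and summed to 711 to 1167 CPM against 834 to 970 CPM, beside 5482 to 7441 CPM for the CD8+ T cell identity genes. The median log2 difference between the compounds, EnPGC-1 minus SGC-CBP30, was 2.31 in the B cell list, 2.82 in the myeloid and 2.39 in the erythroid list. The median of DMSO minus Ctrl PIP was 1.29, 0.97 and 1.001 in the same lists. A median gives genes with few reads the same weight as abundant ones. Summed over all listed members, B cell markers stood at 969 and 970 CPM with EnPGC-1 and 928 and 834 with SGC-CBP30. Myeloid markers summed to 76.1 and 10.9 CPM with EnPGC-1 against 14.8 and 14.2 with SGC-CBP30. Erythroid markers summed to 118 and 26.4 CPM against 29.6 and 10.7. In the B cell list, Cd22 stood at 6.58 and 3.36 CPM with EnPGC-1 against 1.27 and 0.709 with SGC-CBP30.

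The 19 myeloid and dendritic markers summed to 17.1 to 29.7 CPM in the controls and 10.9 to 76.1 CPM with the compounds, and the 13 erythroid and platelet markers to 16.5 to 58.3 CPM and 10.7 to 118 CPM. Both highest values were in EnPGC-1 replicate 1, the library that also held most of the Ppargc1a reads. Itgax was the 1 of 13 myeloid markers tested that was lower without overlap, at 3.97 to 7.11 CPM in the controls and 0.699 to 3.08 CPM with the compounds; it encodes CD11c, which activated CD8+ T cells can also carry. Of 8 CD4 and regulatory T cell markers, 1 was lower without overlap, Zbtb7b, and the list summed to 117 to 293 CPM against 205 to 257 CPM.

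Other lists had few members without overlap. Of 30 interferon-stimulated genes, 1 was higher without overlap, Gbp2, at 315 to 364 CPM in the controls and 378 to 592 CPM with the compounds. Of 29 ATF4 and unfolded protein response genes, 1 was lower, Xbp1, and 1 was higher, Vldlr (3.45% each); 6 were lower at an edgeR unadjusted p under 0.05, against 5.4% of all genes, and after the offsets 4 were lower without overlap (13.8%, against 4.26%). Of 23 BCL2 family and death genes, 3 were lower (13.04%, against 3.76% of all genes), Bcl2a1d, Bcl2l1 and Bid. Bcl2l1, the gene of the survival protein BCL-XL, stood at 44.4 to 68.4 CPM against 23.1 to 40.5 CPM (log2 fold change -0.82, SE 0.24; DESeq2 adjusted p 0.0792), and Bcl2a1d is one of a family of near-identical copies, so its counts are uncertain. Of 22 integrins and adhesion genes, 2 were lower (9.09%), Itgax and Itgb1, the second at 253 to 290 CPM against 152 to 191 CPM (log2 fold change -0.67, SE 0.13; DESeq2 adjusted p 4.63e-05). Of 22 G1 regulators, 0 were without overlap.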

How the data were processed

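RNA-seq was run on 8 libraries of mouse CD8+ T cells, 2 in each of 4 groups. Libraries were made with a stranded mRNA kit, per the labels' protocols; the submitters' processing notes name HISAT2, StringTie and DESeq2 and the build mm10, with no role, version or strand setting. The authors deposited a table of raw counts for 45777 genes and a table of rlog values, on a log2 scale, for 16442 genes; the first was the main input and the second an alternative. Gene names came from RefSeq (GRCm38.p6, the assembly of mm10) by gene ID, with 99.8% matched, and the 300-base promoter windows from the same release.

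Counts were tested in edgeR 4.0.16 (R 4.3.3): filterByExpr by group, TMM, a quasi-likelihood fit of 4 group means with 4 residual degrees of freedom and a common coefficient of variation of 0.415, and the contrast of the mean of EnPGC-1 and SGC-CBP30 minus the mean of DMSO and Ctrl PIP, adjusted by Benjamini-Hochberg over 16750 genes at 0.05. Log2 CPM used a prior count of 2. Every gene without overlap has the smallest two-sided exact permutation p that 70 arrangements of 4 against 4 allow, 0.0286, so that p is not repeated. Alternatives were DESeq2 1.42.0, limma 3.58.1 on the rlog values, DESeq2 size factors, no filter, 2 arm means, a replicate block, length and GC offsets (mgcv 1.9.3; 15496 genes, 92.5%, with a length), a wider gap, and libraries left out. Scripts were tested on simulated data. Adjusted p-values of DESeq2 were present for 13502 genes.

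The named genes were up to 14 per direction by gap with at least 5 CPM in the higher arm, up to 4 members with the smallest edgeR p in each list, and 16 fixed genes; other members named were without overlap or were chosen after their values were seen. Some genes that these rules name are not reported here. The members, the 30 gene lists and the fixed genes were chosen with earlier results of these data known.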

Additional observations from a re-analysis of the deposited data

Results flagged for a closer look

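Of the sets of 4 libraries in an arm, 8 of 82 (41 genes named by gap or as fixed genes, in 2 arms) held a library far from the other 3 relative to the range of the arm (Dixon's criterion at the 95% level), where chance alone marks about 1 in 20; an arm pools 2 groups. In the compound arm EnPGC-1 replicate 2 was low for Slco4a1, an organic anion transporter, at 4.16 CPM, high for Amt at 7.78 CPM and high for Cpt1a at 170 CPM. EnPGC-1 replicate 1 was high for Il2ra at 64.8 CPM and for Ppargc1a at 1.80 CPM. In the control arm Ctrl PIP replicate 2 was high for Car12, a carbonic anhydrase, at 12.3 CPM, Ctrl PIP replicate 1 was high for Mttp at 4.20 CPM, and DMSO replicate 1 was high for Ppargc1a at 0.333 CPM. For Slco4a1, Car12, Amt, Mttp, Il2ra and Cpt1a the arms did not overlap with these values included.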

How the results depend on the processing

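With edgeR, 0 genes were called in either direction with DESeq2 size factors, without the filter, with 2 arm means and with the length and GC offsets, and 0 with limma on the rlog values and limma-voom with the offsets (the last added after seeing the data). DESeq2 called 39 genes higher and 183 lower, and 14 and 123 without DMSO replicate 2 (also added after seeing the data). Leaving out 1 library at a time gave 0 to 55 higher and 0 to 235 lower, the upper values without DMSO replicate 1 and 0 in the other 7 cases. Leaving out both libraries numbered 1 of DMSO and EnPGC-1 gave 2199 and 2418, and both numbered 2 gave 2 and 19; in these fits a lone library is assumed to vary like the other groups. The cause was not tested.

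Genes without overlap numbered 499 and 629, 28 and 52 with a gap of at least 0.5, and 614 to 2030 and 686 to 2518 with 1 library left out, where fewer values have to be ordered. The upper values were without DMSO replicate 1. The others reached 1056 and 1074 without EnPGC-1 replicate 2, 953 and 986 without EnPGC-1 replicate 1, 818 and 841 without SGC-CBP30 replicate 2, and 614 to 675 and 686 to 751 in the other 4 cases. With the offsets they numbered 662 and 660, which held 299 (59.9%) of the 499 and 416 (66.1%) of the 629.

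Of 819 values of the 41 genes named by gap or as fixed genes, without those named from the lists, under 20 alternatives, 698 kept direction and side of the threshold, 113 passed it where the main value had not, 0 the reverse, and 8 changed sign. With 1 library left out, Pdcd1 ranged from -0.11 to 0.31, Ppargc1b from -0.35 to 0.62 and Prf1 from -0.31 to 0.013. Pdcd1 was -0.11 without DMSO replicate 1, -0.089 without EnPGC-1 replicate 2 and -0.056 without Ctrl PIP replicate 2. Ppargc1b was -0.074 without DMSO replicate 2, -0.35 without EnPGC-1 replicate 1 and -0.075 with DESeq2 without DMSO replicate 2. Prf1 was 0.0075 without EnPGC-1 replicate 2 and 0.013 without SGC-CBP30 replicate 2.

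With the replicate number as a block edgeR called 0 genes higher and 0 lower, and 0 and 0 with the offsets. The numbers do not pair all groups: deviations of same-numbered libraries correlated at 0.67 for DMSO and EnPGC-1, 0.23 for either with SGC-CBP30, and -0.25 to -0.04 for Ctrl PIP with the other groups.

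Depth limits Ppargc1a, Batf3 and Utf1, and with 2 libraries a group the median 95% interval of the pooled contrast reached 0.71 to either side on the log2 scale.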
